A study of Mus musculus with 2 samples.

Results

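Remote intergenic sites are stretches of open chromatin that lie in no annotated gene and over 100 kb from every protein-coding transcript start. They were taken from DNase-seq of mouse tissue labelled as a layer of hippocampus, an assay in which the nuclease DNase I cuts DNA where it is not packed into nucleosomes. Both libraries, numbered biological replicates 1 and 2 of 1 group, came from B6CASTF1/J females at 14 days of age, and each label names 3 females. B6CASTF1/J is the first-generation cross of C57BL/6J and CAST/EiJ, and all positions are on the C57BL/6J reference, build mm10. The 2 libraries carry different biosample identifiers under the same donor identifier, and the sources used here do not say whether their animals differed, so the spread between them may be technical. A site was included when an autosomal replicate 1 peak of the longer peak list was overlapped by at least 1 bp by a replicate 2 peak, outside every GENCODE M21 gene body and with its midpoint over 100 kb from the starts named above. This held for 8548 of 80205 shared autosomal peaks, 10.7%. The sites were thus selected on measured peaks of both libraries as well as on position, and they are not replicates. With 1 group of 2 libraries no test was possible, since the smallest exact permutation p over 2 pairs is 0.5, so every comparison below is a description.

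Genes make up only part of a mammalian genome, and long gene-free stretches separate some genes from their neighbours. Regulatory DNA in such stretches can act over long distances as enhancers, which bind transcription factors and are brought to promoters by looping of the chromatin. CTCF, a zinc finger protein that halts the cohesin complex, marks many loop anchors and domain borders. A protein bound to DNA shields a few bases from DNase I, and the gap it leaves among the cuts is called a footprint. The gene nearest to an enhancer is often not the one it controls, so nearest genes are given here as addresses and not as targets.

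Some of the sites with the highest signal in both libraries, and some with a known word under footprints of both, are printed first because the later counts turn on such letters. All are mm10, plus strand, 5′ to 3′, and capitals mark bases that lie under a footprint of replicate 1 and of replicate 2. The first 3 hold the CTCF core, a 12-base consensus searched on both strands, under a footprint in both libraries.
chr8:20122141-20122320: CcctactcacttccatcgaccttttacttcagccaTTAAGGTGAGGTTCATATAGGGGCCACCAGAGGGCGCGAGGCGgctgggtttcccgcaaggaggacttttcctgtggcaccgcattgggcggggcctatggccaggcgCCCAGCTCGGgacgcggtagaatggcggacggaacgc
chr4:9135881-9136080: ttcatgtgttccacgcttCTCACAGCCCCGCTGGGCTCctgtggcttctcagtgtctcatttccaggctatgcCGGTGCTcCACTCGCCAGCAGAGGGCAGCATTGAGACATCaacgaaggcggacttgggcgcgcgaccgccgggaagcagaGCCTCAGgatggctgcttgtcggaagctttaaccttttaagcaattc
chr5:130853481-130853640: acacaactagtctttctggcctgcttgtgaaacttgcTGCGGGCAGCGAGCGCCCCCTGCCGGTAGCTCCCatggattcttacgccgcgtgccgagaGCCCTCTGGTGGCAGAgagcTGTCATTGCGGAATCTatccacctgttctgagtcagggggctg
In the chromosome 8 site the core is CCACCAGAGGGC from base 59, in the chromosome 4 site CCAGCAGAGGGC from base 88, and in the chromosome 5 site it lies on the minus strand and reads GCCCTCTGGTGG from base 98 of the printed strand. In each of them the whole core is in capitals.

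The next 2 sites carry words of other factors under footprints of both libraries, and were chosen after their values were seen. The E-box CAGATG is the form bound by NeuroD and other proneural factors, which drive and maintain neuronal identity. Nuclear factor I (NFI) proteins bind a long palindrome and act in hippocampal development and in astrocytes.
chr4:13146941-13147160: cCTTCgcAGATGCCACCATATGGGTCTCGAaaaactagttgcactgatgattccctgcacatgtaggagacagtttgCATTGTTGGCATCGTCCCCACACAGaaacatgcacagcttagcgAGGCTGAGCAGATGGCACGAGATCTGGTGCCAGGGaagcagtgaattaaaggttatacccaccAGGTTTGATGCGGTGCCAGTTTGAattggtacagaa
chr15:62903081-62903280: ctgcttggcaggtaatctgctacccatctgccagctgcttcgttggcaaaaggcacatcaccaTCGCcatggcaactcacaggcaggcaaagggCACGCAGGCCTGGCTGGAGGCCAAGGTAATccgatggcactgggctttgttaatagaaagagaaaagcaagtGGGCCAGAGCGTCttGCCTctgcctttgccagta
The site on chromosome 4 held 2 E-boxes, from bases 7 and 130, and its nearest coding start was that of Triqk, 240 kb away. The site on chromosome 15 held the NFI palindrome from base 104 and lay 906 kb from the nearest coding start, that of Gsdmc.

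The last group holds 2 of the strongest sites that carry none of the 3 words named above under a footprint of both libraries, a strong site beside a long noncoding RNA start, and the most remote site.
chr1:102628161-102628340: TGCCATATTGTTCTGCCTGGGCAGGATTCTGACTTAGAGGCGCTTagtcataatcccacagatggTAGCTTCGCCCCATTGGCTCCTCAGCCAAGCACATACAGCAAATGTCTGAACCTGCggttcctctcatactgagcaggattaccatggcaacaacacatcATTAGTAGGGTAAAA
chr13:84347981-84348240: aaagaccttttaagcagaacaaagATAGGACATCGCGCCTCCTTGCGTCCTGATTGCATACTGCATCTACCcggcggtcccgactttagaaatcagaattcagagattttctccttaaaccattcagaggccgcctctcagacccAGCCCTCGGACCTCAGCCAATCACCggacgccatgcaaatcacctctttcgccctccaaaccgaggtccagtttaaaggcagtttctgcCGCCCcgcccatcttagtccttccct
chr15:68363341-68363500: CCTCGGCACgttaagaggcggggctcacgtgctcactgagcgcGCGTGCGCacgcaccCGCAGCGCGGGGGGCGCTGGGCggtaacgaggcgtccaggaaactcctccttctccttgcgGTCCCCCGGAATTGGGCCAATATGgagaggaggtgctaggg
chr14:90889781-90890060: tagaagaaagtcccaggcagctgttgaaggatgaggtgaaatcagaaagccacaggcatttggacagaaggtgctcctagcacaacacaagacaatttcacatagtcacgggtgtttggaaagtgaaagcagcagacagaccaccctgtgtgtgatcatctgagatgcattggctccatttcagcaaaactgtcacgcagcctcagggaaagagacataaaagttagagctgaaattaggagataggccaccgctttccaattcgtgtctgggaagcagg
The site on chromosome 14, the most remote of all at 2419 kb from the start of the protocadherin gene Pcdh20, had 1 footprint in each library but no base under both, and is printed wholly in lower case.

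Most remote sites were weak, and 0.737% of them in replicate 1 and 1.38% in replicate 2 stood above the 90th percentile of all shared peaks. Their median signal, in the authors' units whose scaling is not stated, was 0.585 in replicate 1 and 0.583 in replicate 2, with interquartile ranges of 0.38 to 0.995 and 0.358 to 0.975. Nearer intergenic peaks, those 10 to 100 kb from a coding start and in no gene, had medians of 0.927 and 0.75. Promoter peaks, within 500 bp of a coding start, had 4.19 and 1.77. The median of the remote sites was 0.631-fold that of nearer intergenic peaks in replicate 1 and 0.777-fold in replicate 2, a mean log2 ratio of −0.51 ± 0.21 (SD of 2 libraries). Both libraries placed the remote sites lower, and 79.6% of them in replicate 1 and 67.1% in replicate 2 fell at or below the 50th percentile of all shared peaks. Shared peaks that were as remote but inside a gene body, over 100 kb from every coding start, had medians of 0.714 and 0.623, between the remote and the nearer intergenic peaks. In bulk tissue, a site open in few cells and a site opened weakly in many cannot be told apart.

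**Figure D1:**
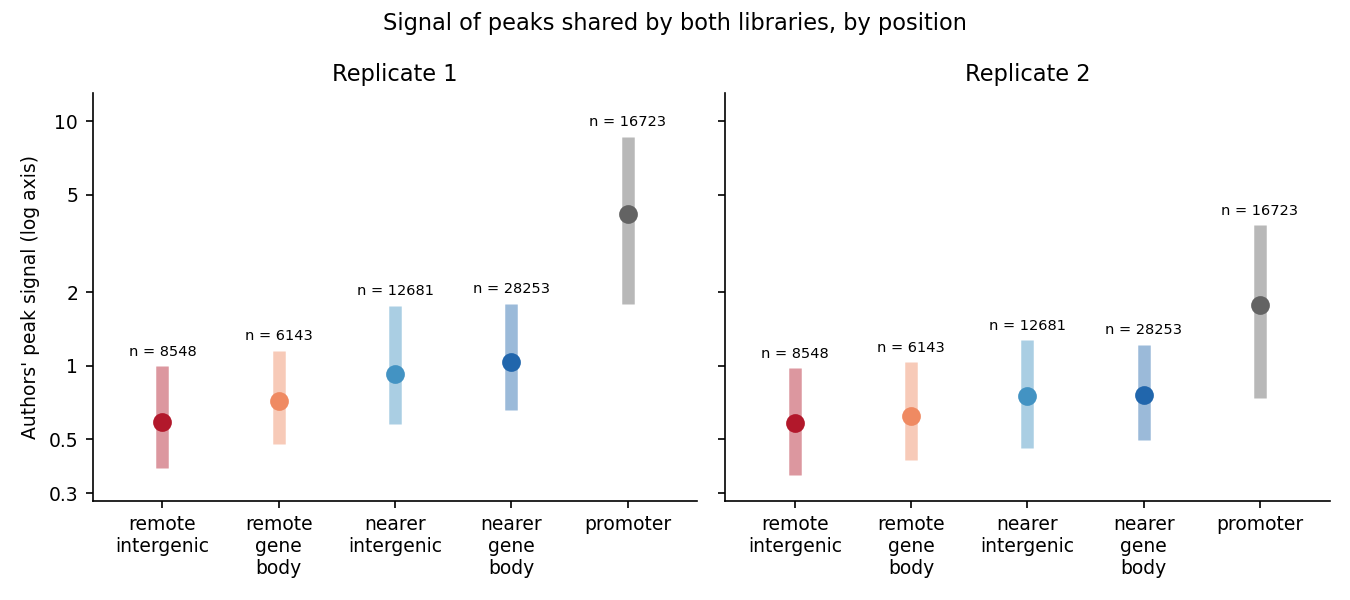
Authors' peak signal (log axis) of peaks shared by both libraries, by position, in replicate 1 (left panel) and replicate 2 (right panel). Points are medians, bars are interquartile ranges, and n is the number of peaks. Remote intergenic sites have the lowest median in both libraries, 0.585 and 0.583, and promoters the highest, 4.19 and 1.77.

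By the smaller of a site's percentiles in the 2 libraries, the first was chr3:5860361-5860530, whose signal reached 39.7 in replicate 1 and 24 in replicate 2. The nearest transcript start of any type lay 20595 bp from it. From general knowledge its letters resemble large-subunit ribosomal RNA, whose gene is present in many copies, although no annotation used here marks it. Neither a ribosomal repeat unit nor a list of regions prone to false signal was at hand, so whether these values belong to this place alone was not tested. The second, chr8:20122141-20122320, had 33.6 and 13, and its midpoint lay 153 bp from the start of the processed pseudogene Gm21769. Its CTCF core was one of those printed above. The third, chr1:102628161-102628340, had 18.5 and 7.38 and was also the fifth most remote site, 2140 kb from the start of the cadherin gene Cdh20. The fourth, chr13:84347981-84348240, had 16.3 and 7.9 and lay 123 kb from Tmem161b, a membrane protein gene. The fifth, chr15:68363341-68363500, had 15.8 and 7.53 and lay 245 bp from the start of the long noncoding RNA Gm20732. The rest of the first 10 ranged from 10.1 to 13.5 in replicate 1 and from 4.43 to 5.82 in replicate 2, and lay from 122 to 376 kb from a coding start. A search of the assembly with minimap2 found no second copy, at 90% identity over 80% of the length, of any of these 10 sites, and one or more for 35 of all 8548, 0.409%, against 0.954% of nearer intergenic peaks. Repeats that the assembly does not hold in full could not be searched, so for the chromosome 3 site the search does not show a single copy.

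Sites on both sides of the position limit overlapped in signal in each library. The 3 sites just inside it lay 100007, 100014 and 100017 bp from the starts of Ralgapa2, Ptpn20 and Cd180. They had signals of 2.04, 0.615 and 1.21 in replicate 1 and 1.19, 0.41 and 1.3 in replicate 2. The 3 just outside lay 99942, 99931 and 99895 bp from Vwc2, Rgs2 and Snx7. They had 0.737, 0.539 and 0.236 in replicate 1 and 1.28, 1.06 and 0.635 in replicate 2.

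Among remote intergenic, remote gene body, nearer intergenic and promoter peaks, the remote intergenic ones were least often shared between the libraries. The position rule alone took 12591 replicate 1 peaks, 11.2% of that library's autosomal peaks, and 26623 replicate 2 peaks, 16.3%. Of these, 67.9% in replicate 1 were overlapped by the other library, against 71.2% of all its autosomal peaks, and 32.1% in replicate 2, against 49.7%. Replicate 2 peaks without a partner were weak, with a median signal of 0.271 against 0.571 for those with one. The median ratio of replicate 1 over replicate 2 signal at the remote sites was 1.13, against 1.44 at nearer intergenic peaks and 2.42 at promoters, so the ratio fell with remoteness. Over the 8548 sites, which share the same 2 libraries, log2 signals had a Pearson correlation of 0.709 and signals a Spearman correlation of 0.666, below 0.783 and 0.753 at nearer intergenic peaks. Whether depth or tissue makeup moves this ratio was not tested.

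As a check on the tissue, marker promoters were read in the same files. Excitatory neuron markers had a promoter peak at 8 of 8 in replicate 1 and 7 of 8 in replicate 2, and astrocyte markers at 5 of 5 in both. Oligodendrocyte lineage markers had one at 4 of 4 in replicate 1 and 3 of 4 in replicate 2. Inhibitory neuron markers had one at 4 of 5 in replicate 1 but 1 of 5 in replicate 2, microglial markers at 2 of 4 and 4 of 4, and vessel markers at 2 of 3 and 1 of 3. Markers of other tissues had 1 of 7 in replicate 1 and 0 of 7 in replicate 2. The libraries thus differed in inhibitory and microglial markers, and the part of this in the remote sites was not tested. Without a peak in both were Slc17a7 among excitatory markers and Gad2, Slc32a1, Dlx1 and Lhx6 among inhibitory ones. The remote sites therefore come from a tissue with open promoters of neurons and glia, and which cells open a given site was not measured.

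Around their midpoints, taken from the replicate 1 peaks for both libraries, the remote sites were narrow. The authors' cut-rate files list bases at which cutting passed a false discovery rate of 0.05. Within 50 bp of the midpoint, such bases made up 96.8% of the sequence in replicate 1 and 94.5% in replicate 2, against 97.4% and 95.2% at nearer intergenic peaks. From 200 to 250 bp off the midpoint the share was 15.9% in replicate 1 and 36.4% in replicate 2. The same window around nearer intergenic peaks gave 18.6% and 28.8%, so the order of the classes turned round between the libraries. Whether the use of replicate 1 midpoints for replicate 2 moved this order was not tested. At promoters it gave 82% and 75.8%. By replicate 1 boundaries the median remote site was 180 bp wide, against 196 bp for nearer intergenic peaks and 240 bp for promoters.

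**Figure D2:**
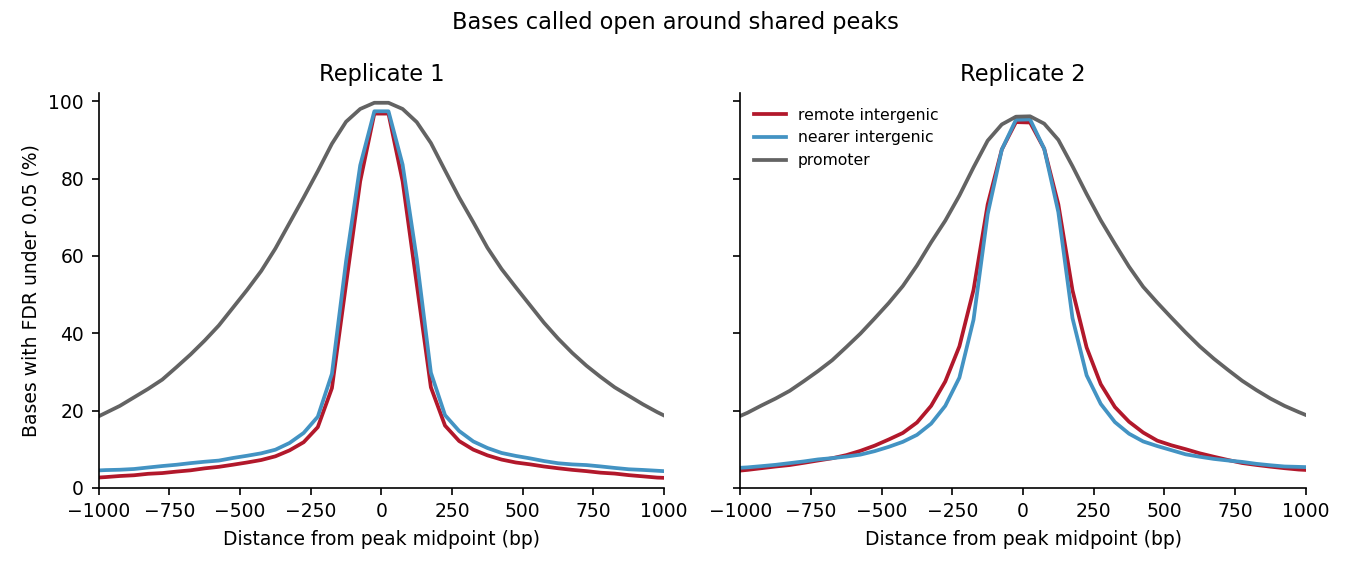
Share of bases with a false discovery rate under 0.05 (y axis, percent) by distance from the midpoint of the replicate 1 peak (x axis, bp). Panels are replicate 1 (left) and replicate 2 (right). Lines are remote intergenic sites, nearer intergenic peaks and promoters. Remote and nearer intergenic lines lie close together, and promoters stay open over a wider stretch, with 82% and 75.8% at 200 to 250 bp.

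Footprints were somewhat rarer at remote sites. At least 1 footprint overlapped 78.5% of the sites in replicate 1 and 80.7% in replicate 2, against 88.2% and 86% of nearer intergenic peaks. Over all shared autosomal peaks the background was 87.7% and 85.4%. The mean number per site was 1.95 and 2.01, against 2.48 and 2.22. Both libraries footprinted 5788 of the sites, 67.7%, and neither footprinted 731. Sites with no footprint had a median signal of 0.319 in replicate 1 and 0.317 in replicate 2, and sites with 4 or more had 1.3 and 1.13. For peaks of like signal, all shared peaks were ranked on their smaller percentile and the ranks cut into 4 equal bins. In no bin was the number lower in both libraries, but the direction differed between libraries in bins 1 and 4. Bin 1, the weakest, held 52.3% of the remote sites. Its remote sites had a mean of 1.11 footprints in replicate 1 and 1.27 in replicate 2, against 1.25 and 1.12 at nearer intergenic peaks. In bin 2, counted from the weakest, remote sites had a mean of 2.36 and 2.35 footprints, against 2.24 and 2.03 at nearer intergenic peaks. In bin 4 they had 3.87 and 3.62, against 3.92 and 3.55.

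The position of a footprint was less often shared at remote sites than at nearer intergenic peaks. Of the footprints in them, 43.9% in replicate 1 and 43.2% in replicate 2 were overlapped by a footprint of the other library, against 50.4% and 57.2% in nearer intergenic peaks. Remote peaks inside gene bodies were close to the remote sites, at 43.9% and 45.8%. A median footprint in them was 9 bp wide in replicate 1 and 10 bp in replicate 2. By the smaller count of both libraries, the site with the most footprints, chr8:126735901-126736660, had 11 in replicate 1 and 10 in replicate 2 over 760 bp, with signals of 2.65 and 2.11. It lay 142 kb from Irf2bp2, which encodes a transcriptional corepressor. Next came chr4:55651121-55651700, with 10 in each library, 119 kb from the transcription factor gene Klf4. Both were wider than the median site of 180 bp, and neither was among the 10 strongest.

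The CTCF core was scarcer at the remote sites than at nearer intergenic peaks. It was found in 322 of 8548 sites, 3.77% (95% exact binomial interval 3.37 to 4.19, counting error only), against 9.35% (8.85 to 9.87) of nearer intergenic peaks and 5.63% of all shared peaks. Remote peaks inside gene bodies had 3.53% (3.08 to 4.02), and this interval overlaps that of the remote intergenic sites. In windows of the same length 1 kb to either side of the remote sites the share was 0.0692%. Where the core was present it was mostly footprinted: 80.6% of its instances in the sites had at least 6 of the 12 bases under a replicate 1 footprint and 87.3% under a replicate 2 footprint. The same held for 92.4% and 94.6% of instances in nearer intergenic peaks. Core and footprint in both libraries came together in 248 sites, 2.9%, against 4.95% of all shared peaks. With replicate 1 peaks alone the core was in 2.68%, against 7.21% of nearer intergenic peaks, and with replicate 2 peaks alone in 1.9%, against 6.16%. Sites with the core were stronger, with median signals of 1.38 and 1.14, against 0.57 and 0.565 for sites without it.

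The share was lower at like signal too. In the 4 signal bins, from the weakest to the strongest, remote sites had the core in 1.45%, 3.19%, 6.62% and 15.3%. Nearer intergenic peaks of the same bins had 2.59%, 5.88%, 11.3% and 22.9%. The share rose with signal in both classes, and the remote share was the lower in all 4 bins. Of the 5 strongest sites with the core under a footprint in both libraries, the fifth, chr16:50736861-50737020, had 6.48 and 3.23 and lay 4168 bp from the start of the long noncoding RNA Dubr.

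The E-box CAGATG was more frequent at the remote sites than at nearer intergenic peaks. Read on both strands, it was present in 2656 sites, 31.1%, against 25.9% of nearer intergenic peaks, 22.6% of all shared peaks and 13.6% of windows 1 kb from the sites. Remote peaks inside gene bodies had it in 29.4%. By signal bin, remote sites had it in 28.3%, 34.7%, 34.4% and 31.5%, against 24.2%, 27%, 28.8% and 22.7% of nearer intergenic peaks. It was higher at remote sites in all 4 bins. Remote peaks inside gene bodies had 25.8%, 31%, 32.9% and 31.1%, so the excess over nearer intergenic peaks was not particular to intergenic sites. In 550 sites, 6.43% (5.92 to 6.98), an instance lay at least 50% under a footprint in replicate 1 and likewise in replicate 2. This held for 5.52% (5.13 to 5.93) of nearer intergenic peaks, and the intervals overlap. Of single instances, 29.9% were so covered in replicate 1 and 34.4% in replicate 2, against 31.3% and 31% in nearer intergenic peaks. The libraries thus did not give the classes the same order. Sites with the E-box had median signals of 0.623 and 0.629, against 0.562 and 0.554 without it. Another E-box, CAGCTG, was in 24% of remote sites, 22.3% of nearer intergenic peaks and 7.22% of the windows. With replicate 1 peaks alone the E-box share was 26.7% against 23.6% of nearer intergenic peaks, and with replicate 2 peaks alone 32.8% against 27.6%.

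**Figure D3:**
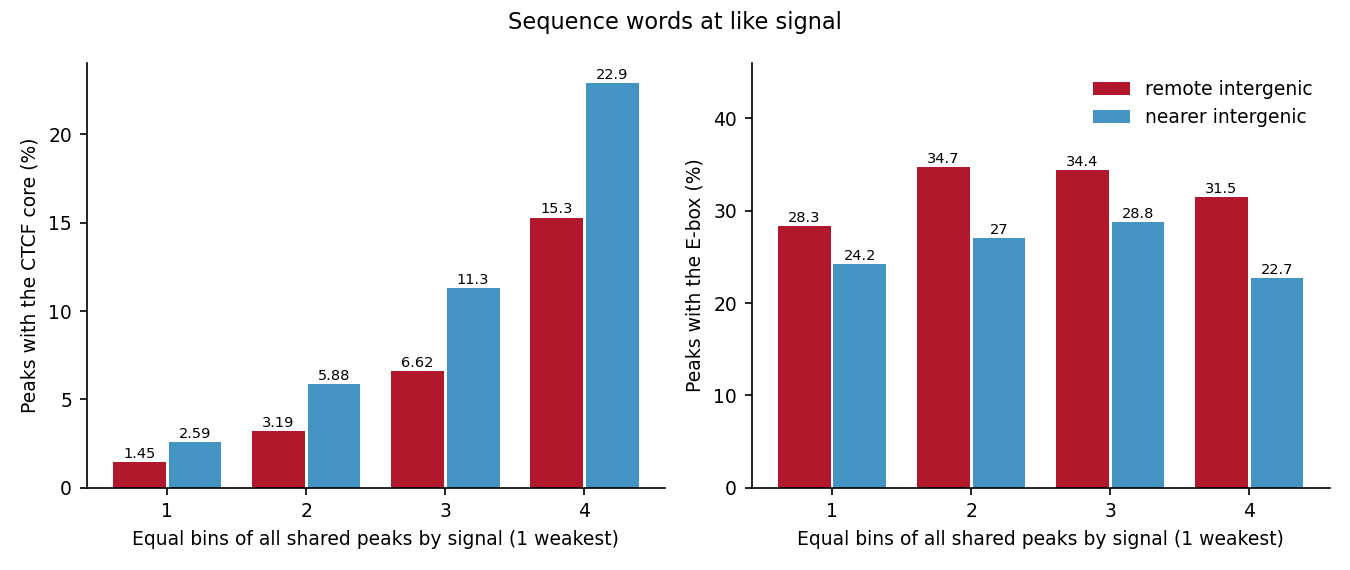
Share of peaks with the CTCF core (left panel, percent) and with the E-box CAGATG (right panel, percent) in each of 4 equal bins of all shared peaks by signal, bin 1 being the weakest. Bars are remote intergenic sites and nearer intergenic peaks. The CTCF share is lower and the E-box share higher at remote sites in all 4 bins.

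Other words differed in direction. The full NFI palindrome was in 63 sites, 0.737% (0.567 to 0.942), against 0.497% (0.382 to 0.635) of nearer intergenic peaks, and these intervals overlap. It was in 0.0126% of the windows. The homeodomain word TAATTA was in 4.87% of remote sites and 3.42% of nearer intergenic peaks, but in 6.78% of the windows beside the remote sites, where GC content was lower. Median GC content was 50.9% in the sites and 42.5% in their windows, against 53% and 45.9% for nearer intergenic peaks. The Fos and Jun word TGANTCA was in 7.22% of remote sites, 7.33% of nearer intergenic peaks and 5.84% of the windows. The GC box GGGCGG, a promoter word, was in 6.47% of remote sites, against 10.5% of nearer intergenic peaks and 64.5% of promoters. Every word was searched on both strands, words can overlap, and a match is a match of letters only.

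Density fell with distance. Autosomal sequence that could hold a remote site, over 100 kb from coding starts and outside genes and assembly gaps, came to 652 Mb, 27.2% of the autosomes. It held 13.1 shared peaks per Mb, against 41.1 per Mb in all other autosomal sequence. Intergenic sequence 10 to 25 kb from a coding start held 29.4 per Mb, at 25 to 50 kb 30.4, and at 50 to 100 kb 26.5. From there it was 20.1 per Mb at 100 to 200 kb, 14.1 at 200 to 500 kb, 7.22 at 500 to 1000 kb and 3.99 beyond 1000 kb. The 276 sites beyond 1000 kb made up 3.23% of the remote sites, and the median site lay 229 kb away. With replicate 1 peaks alone the density over 100 kb was 19.3 per Mb, and with replicate 2 peaks alone 40.8. These count shared and unshared peaks, so they are not to be set beside the 41.1 per Mb of shared peaks. By position this sequence, 27.2% of the autosomes, held 11.2% of replicate 1 and 16.3% of replicate 2 autosomal peaks.

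Signal and CTCF fell along the same scale while the E-box rose. Median signal in the 4 remote distance ranges, near to far, was 0.661, 0.57, 0.433 and 0.357 in replicate 1 and 0.611, 0.565, 0.519 and 0.441 in replicate 2. Both libraries fell at each step. The CTCF core was in 12.9% of intergenic peaks at 10 to 25 kb, in 4.8% (4.12 to 5.55) at 100 to 200 kb, in 3.14% at 200 to 500 kb, in 2.9% at 500 to 1000 kb and in 1.81% (0.591 to 4.18) beyond. The E-box was in 24.5% at 10 to 25 kb, 30.1% at 100 to 200 kb, 31.5% at 200 to 500 kb, 31.9% at 500 to 1000 kb and 35.1% (29.5 to 41.1) beyond. All 4 remote ranges overlap one another in their intervals for the E-box, so a rise within the remote sites was not resolved. The 3 farthest ranges overlap for CTCF. Median GC content moved with them, at 53.3% in the first range, 51.9% at 100 to 200 kb and 47.5% beyond 1000 kb, and its part in these shares was not tested.

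**Figure D4:**
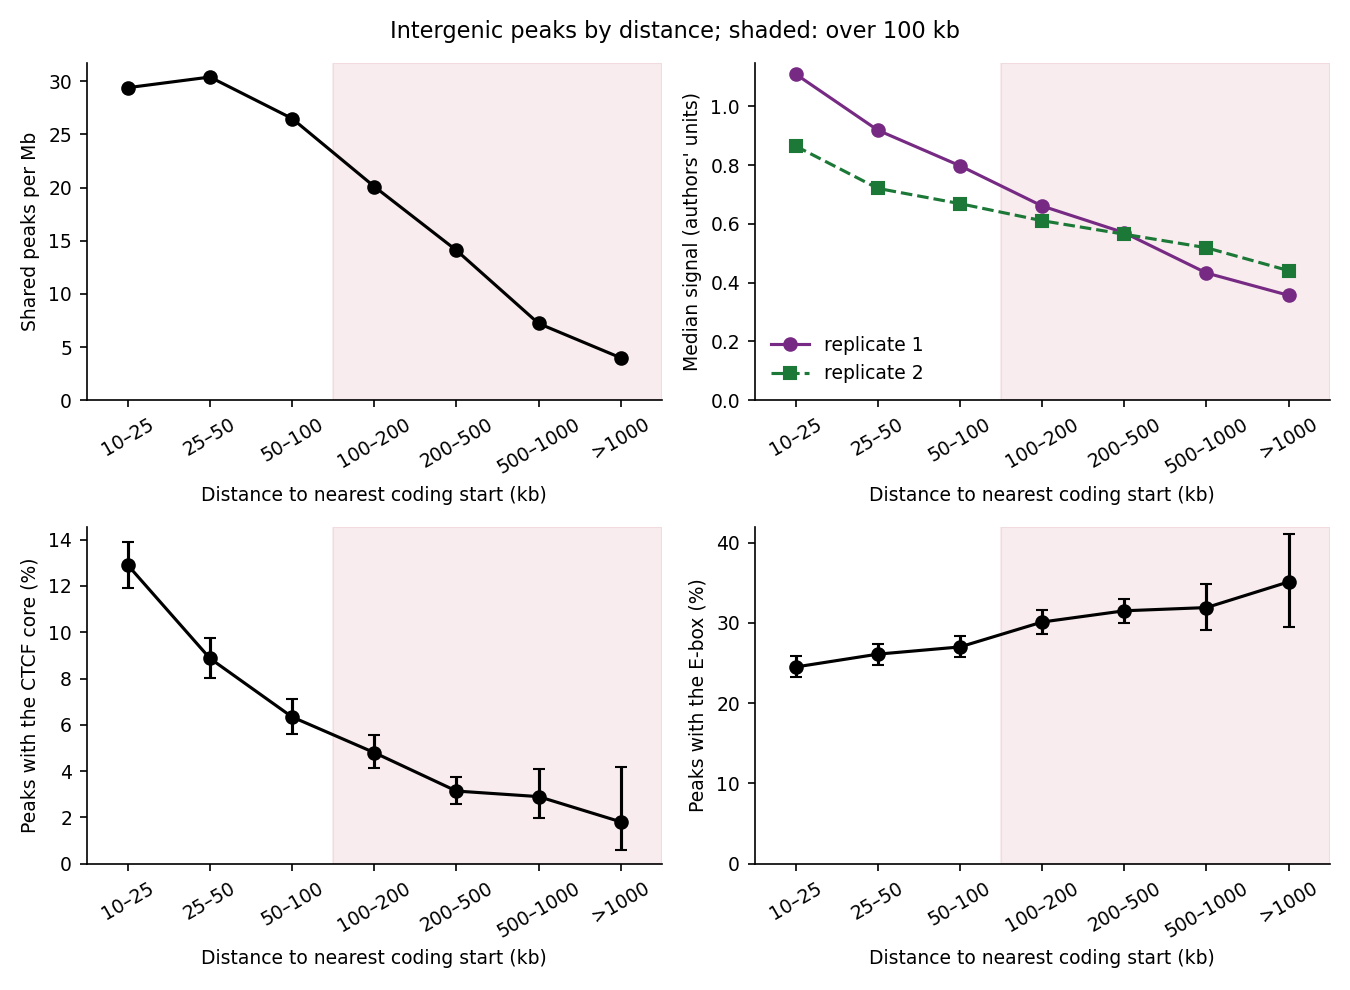
Intergenic shared peaks by distance to the nearest coding start (x axis, kb): peaks per Mb, median signal in each library, and shares of peaks with the CTCF core and the E-box CAGATG (percent, bars are 95% exact binomial intervals). The shaded ranges are the remote sites. Density falls to 3.99 per Mb beyond 1000 kb, and the E-box share is 35.1% there.

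Remote sites were present on every autosome and often lay near one another. Density ran from 10.4 per Mb on chromosome 3 to 16.8 on chromosome 13, a narrower span than among gene deserts. The median site had another within 14.6 kb, and 3700 sites, 43.3%, had one within 10 kb. Of all sites, 1596, 18.7%, had one within 1 kb and 105 overlapped another, so 1 open stretch can count as several sites. No such share is given here for other peaks. Linking sites within 10 kb gave 52 runs of 5 or more, which held 285 sites. One run of 7 sites spanned 5.86 kb at chr13:84343744-84349600, held the fourth strongest site, and came within 119 kb of Tmem161b. A second run of 7, chr13:84746546-84761229, lay 428 kb from Ccnh, with signals up to 4.07 and 4.98. The run with the most sites, 8, was chr13:97527993-97559920, where the highest signals were 1.58 and 2.37.

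The sequence between coding starts fell into 1665 intervals with room for a remote site, and 378 of them, 22.7%, held none. The interval with the most sites, 49, lay between Auts2, a gene of neural development, and Castor2, which acts in the mTORC1 pathway. It held 38 per Mb. The interval between the cilium gene Nphp4 and Ajap1 held 39 sites at 49.8 per Mb, and that between Slc4a3 and the Eph receptor gene Epha4 held 36 at 26.1 per Mb. Among the 392 intervals with at least 0.5 Mb of room, the median was 8.1 per Mb and the densest, between the kinesin gene Kif2a and Smim15, had 54.3. The empty ones numbered 15, the longest with 2.51 Mb of room, between Cox7c and Edil3. Also empty were stretches beside the immunoglobulin genes Ighv6-5 and Igkv4-54, whose segments B cells rearrange.

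Sites shared their nearest coding gene unevenly. They were nearest to 1849 of the 2647 genes that had any such sequence, and 236 genes with 10 or more took 3225 of the sites. Zfp608, a zinc finger protein gene, had the most, 42 sites between 103 and 703 kb from its start, with median signals of 0.68 and 0.848. Castor2, the secreted protein gene Fam19a5 and Tbl1xr1, which encodes a subunit of the NCoR corepressor, had 29 each. At 0.612 Mb of room Castor2 had 47.4 per Mb, and Tbl1xr1, with 1.84 Mb, had 15.7. Pik3c3, the class III PI 3-kinase of autophagy, had 27 sites and Dhx35, an RNA helicase gene, 26. Tle4, a Groucho corepressor, Zeb2, a zinc finger repressor, and the cadherin gene Cdh8 had 25 each. Nphp4, Klf4, the anion exchanger gene Slc4a3 and Sox9, a factor of neural stem cells and astrocytes, had 24 each. Tcf4, whose E protein pairs with proneural factors on E-boxes, had 23 at 67.1 per Mb, the densest of the 20 leading genes. The medians of its sites were 0.874 in replicate 1 and 0.963 in replicate 2. The others of the 20 were Tmem161b, 3110018I06Rik and the latrophilin gene Adgrl2 with 22 each, and the proliferation marker Mki67, the kinase gene Vrk1 and the mitochondrial enzyme gene Got2 with 21 each.

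The highest signal among the sites of Tbl1xr1 was 8.58 in replicate 1 and 3.78 in replicate 2. At Tcf4 it was 8.34 and 3.73, and at Slc4a3 10.6 and 4.53, while at Castor2 no site passed 2.91 in replicate 1 or 3.22 in replicate 2. The E-box was in 14 of 42 sites of Zfp608 and 11 of 29 of Castor2, near the 31.1% of all remote sites. It was in 13 of 24 of Slc4a3 and 3 of 24 of Sox9. Of the 20 genes, 3110018I06Rik alone had no promoter peak shared by both libraries.

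An open promoter was more frequent among genes with remote sites. Of the 1849 genes nearest to at least 1 site, 77% showed peaks of both libraries at a promoter, against 66.9% of the 798 genes that had room but no site. Over all 2647 genes with room the share was 74%. It was 75.9% among genes with 1 to 4 sites, 74.8% with 5 to 9 and 86.4% with 10 or more, so it did not rise at each step. Genes were also cut into 3 equal bins by the room they had. With and without a site the shares were 78.7% and 71.5% in the bin with least room. They were 77.9% and 57.4% in the middle bin and 75.6% and 56.2% in the bin with most, where 64 genes had no site. Genes with a site still had more room within each bin, with medians of 0.0291 against 0.013 Mb, 0.111 against 0.0871 and 0.452 against 0.309.

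The lists of transcription factor genes had more remote sites than their room and distance gave, as did small contrast lists, and adhesion and channel genes had fewer. For each gene list the sites counted were set beside the number that the density of all remote sites at the same distances gives for the list's own sequence. Progenitor and glial transcription factors, 13 genes with room, had 90 sites against 47.2, a ratio of 1.91. Of these Sox9 had 24, Sox6 had 13 and Sox2 had 13. Cortical and hippocampal neuron transcription factors, 34 genes with room, had 244 against 178, a ratio of 1.37, and were led by Zeb2 with 25, Tcf4 with 23 and Nr2f2 with 16. Activity-regulated genes, 9 with room, had 36 against 23.6, a ratio of 1.52, but 20 of the 36 were those of Inhba, an activin subunit, and Nr4a3 and Nr4a2, nuclear receptors induced by activity, had 5 each. Interneuron transcription factors had 38 against 33.9, a ratio of 1.12, with 17 at Maf, 10 at Tshz1 and 5 at Isl1.

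Cadherin and protocadherin genes, whose remote sequence lay a mean of 932 kb from the nearest start against 474 kb for all genes, had 146 sites against 271, a ratio of 0.54, and 4.44 per Mb against 13.1 for all genes. Cdh8 had 25 of these, Cdh11 had 12 and Pcdh17 had 12. Synaptic adhesion and guidance genes had 226 against 336, a ratio of 0.672, led by the ephrin receptor gene Epha4 with 20 and by the teneurin gene Tenm2 and Flrt2 with 17 each. Ion channel and receptor genes had 76 against 137, a ratio of 0.553, with 13 at the AMPA receptor gene Gria1, 12 at the metabotropic glutamate receptor gene Grm7 and 6 at the potassium channel gene Kcnh7. Olfactory and vomeronasal receptor genes had 25 against 37.1, a ratio of 0.673. Of the contrast lists, liver genes had 11 against 9.79, a ratio of 1.12 and all at Apob and Onecut1. Epithelial, blood and germline genes had 9 against 6.39, a ratio of 1.41, so a list from outside the brain stood as high as the neuron factors, from few sites. Housekeeping genes had none against 0.0653. Striated muscle genes had no such sequence. With replicate 2 peaks alone the ratios moved towards 1, to 1.23 for progenitor and glial factors, 1.14 for neuron factors, 1.13 for activity-regulated genes, 0.794 for cadherins, 0.882 for synaptic adhesion genes and 0.814 for channels. With replicate 1 peaks alone they were 1.64, 1.4, 1.43, 0.64, 0.715 and 0.603. The interneuron ratio lost its direction with the shorter lists, at 0.874. The lists were chosen with earlier results known and hold few genes, so these ratios are descriptions with no test.

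**Figure D5:**
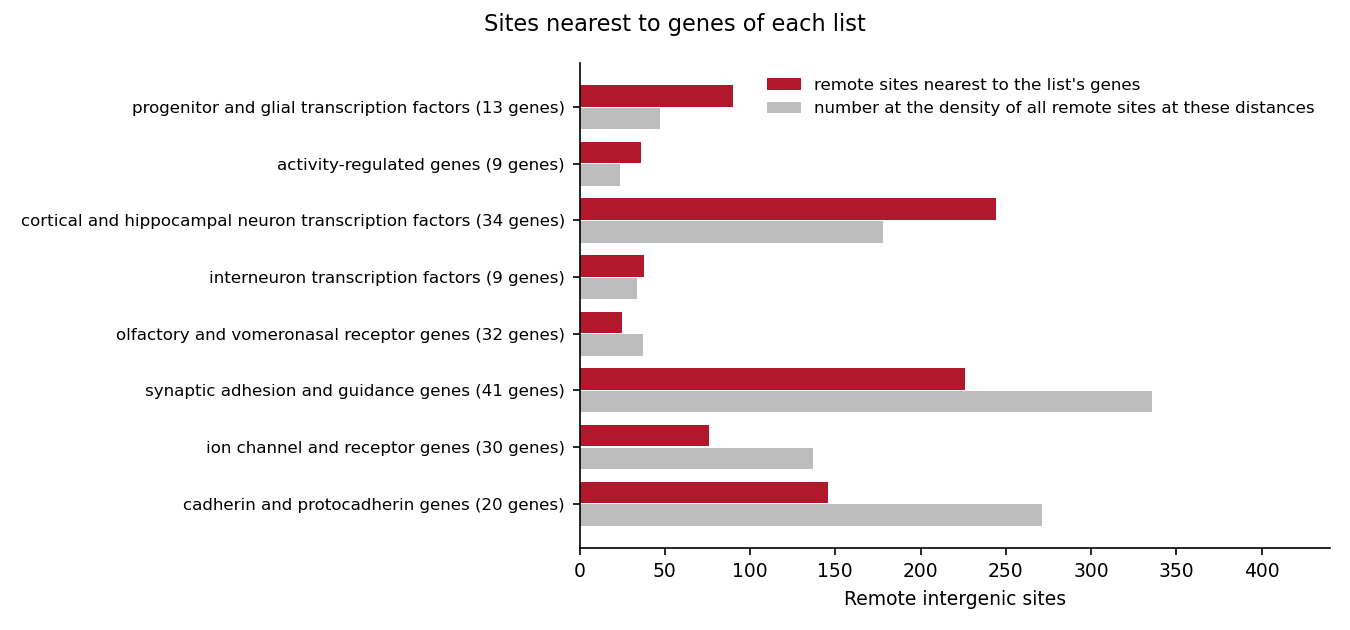
Number of remote intergenic sites nearest to the genes of each list drawn (x axis). Beside it is the number that the density of all remote sites at the same distances gives for the same sequence. Lists where that number was small are not drawn: liver, epithelial, blood and germline, housekeeping and striated muscle. Lists run from the highest to the lowest ratio, with the number of genes that had such sequence in brackets. Progenitor and glial transcription factors have 90 against 47.2, and cadherin genes 146 against 271.

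Few remote sites lay beside a transcript start of a type other than protein-coding. The rule leaves out peaks that touch a gene body of any type, so this count was limited in advance. No like count is given here for other peaks. Of the 8548, 192 sites, 2.25%, lay within 1 kb of a transcript start of another type, 101 of them of long intergenic noncoding RNAs and 29 of processed pseudogenes. Their median signal was 0.661 and 0.64, against 0.577 and 0.577 for the other sites. The 5 strongest of them had from 9.8 to 33.6 in replicate 1 and from 4.11 to 13 in replicate 2, among them Gm20732, printed above, and Gm26901, at chr1:7398061-7398320, with 11.2 and 5.82. The site chr17:47139801-47140100 had 9.8 and 4.11 and lay 924 bp from a start of Trerf1, annotated as a processed transcript. CpG content was low at most remote sites. The observed over expected CpG ratio had a median of 0.24, against 0.279 at nearer intergenic peaks and 0.807 at promoters. It passed 0.6 at 571 sites, 6.68%, against 9.95% of nearer intergenic peaks, 77.6% of promoters and 25.9% of all shared peaks. Remote peaks inside gene bodies were close to the remote sites, with a median of 0.247 and 6.63% over 0.6. Soft-masked repeats covered over 50% of 205 sites, 2.4%, near the 2.57% of nearer intergenic peaks and the 1.87% of all shared peaks. These 205 sites had median signals of 0.38 and 0.363, against 0.585 and 0.588 for the rest.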

How the data were processed

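DNase-seq peaks, footprints and cut-rate calls were deposited for 2 libraries of 1 group. The deposited listings name 1 alignment to mm10 per library as the source of all its files, so peaks were called per library. The sources used here do not name the aligner or the callers. The authors' peak lists give a signal per peak, whose scaling and depth are unknown, so levels were compared only within a library, and ratios between libraries only between classes of peaks. The deposited footprint files give the same score, 0.01, in every row. The deposited cut-rate files give an FDR (a q-value) and list only bases under 0.05.

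Sites were found with Python 3.11.15, numpy 2.4.6, pandas 2.3.3 and pysam 0.24.0 on GRCm38.p6 and GENCODE M21; copies were sought with minimap2 2.31-r1302 and intervals were computed with scipy 1.17.1. The longer list of each library was used. A footprint counted with 1 bp inside a peak. Windows 1 kb away that touched a peak were dropped. Coordinates are 1-based. The scripts were tested on simulated data. Where a gene's room is given, each 1 kb of sequence belongs to its nearest coding start. Named sites came from the 10 strongest, the 5 with most footprints, the 5 most remote and 3 on each side of the limit. Others came from the 5 strongest with a footprinted CTCF core and the 5 strongest beside other starts. Sites on chromosome 18 count in these ranks and ranges, but no sequence from it is printed. The printed E-box and NFI sites were added after their values were seen, from the strongest with the word under footprints of both libraries. By the smaller percentile the NFI site was the first of its kind and the E-box site the third. The stronger E-box sites, chr1:75925841-75926020 and chr1:61181201-61181400, are not printed. Named genes were the 20 with most sites and the 3 leading genes of each of 11 lists. The sites, 21 words and lists were chosen with earlier results of these data known, so they support nothing independently.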

Additional observations from a re-analysis of the deposited data

How the results depend on the processing

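No paired analysis was possible because the 2 libraries belong to 1 group. The lower signal of remote sites against nearer intergenic peaks held under every alternative run, with a mean log2 ratio of −0.41 to −0.69. The shares with a footprint and with the CTCF core were below those of nearer intergenic peaks under all 11 settings each. The levels themselves moved. The number of sites was 4286 with the shorter lists, 4943 over 200 kb and 1717 when starts of every transcript type counted, and 12591 to 26623 with 1 library left out. Density was 6.57 per Mb with the shorter lists and 19.3 to 40.8 with 1 library left out, where unshared peaks counted too. The share with a footprint, 79.6% as a mean of both libraries, was 92% with the shorter lists, 87.5% with a reciprocal overlap of 50%, 81.2% over 50 kb, 78% over 200 kb, 77.3% with starts of every type, 81.3% anchored on replicate 2, 87.2% with equal numbers of peaks, and 65.3% to 73.8% with 1 library left out. The CTCF share was 6% with the shorter lists, 5% with a reciprocal overlap of 50%, 4.62% over 50 kb, 3.01% over 200 kb, 3.03% with starts of every type, 4.67% with equal numbers of peaks, 9.11% with a looser core, and 1.9% to 2.68% with 1 library left out. Anchored on replicate 2, the footprint shares of the 2 libraries lay further apart, with an SD of 8.52 against 1.53 in the main setting. The causes of these moves were not tested. By nearest gene body edge, 88.3% of the sites kept their gene and 19 of the 20 leading genes stayed among them. The E-box, list and copy alternatives were chosen after seeing the data. Depth in reads is unknown, so a site absent from a list may be below its detection limit.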
